A study of Mus musculus with 41 samples.

Results

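Chemokine ligands are the small secreted proteins that draw leukocytes into tissue, and their transcripts were followed here in mouse kidneys after ischemia. Members were the protein-coding genes of the count table whose symbol begins with Ccl, Cxcl, Cx3cl or Xcl followed by a digit. The rule used no measured value. It found 44 gene identifiers with 39 distinct symbols among the 48795 genes of the table. Of these, 34 had at least 1 count in the 40 libraries that belong to a group, and 25 passed the filter on low counts, the same 25 in both cohorts. Members are named with the target leukocyte their family is known for, although many chemokines act on more than one cell type.

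The first cohort holds 4 groups of 6 kidneys from male mice aged 8 to 10 weeks. In the group UIRI+Nx d7, the left kidney was made ischemic for 21 minutes at a core temperature of 34 °C (unilateral ischemia-reperfusion injury, UIRI), the uninjured right kidney was removed on day 3 (nephrectomy, Nx), and the injured kidney was harvested on day 7. UIRI d7 had the same injury and a sham nephrectomy, with harvest on day 7. UIRI d3 was harvested on day 3, and Control mice had no ischemia. The second cohort holds 4 UIRI+Nx d7, 6 UIRI d7 and 6 UIRI d3 kidneys, whose titles carry the tag WT, and no control group. Its labels give neither age, sex, ischemia time nor the day of nephrectomy, and no strain is stated for either cohort. Each library was made from a pole section of 1 kidney and counts the 3′ ends of transcripts.

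Chemokines act through receptors on leukocytes, and the family is usually ordered by the cell it attracts. CXC ligands with an ELR motif (Cxcl1, Cxcl2, Cxcl5) bind CXCR2 on neutrophils. The monocyte chemoattractant group (Ccl2, Ccl7, Ccl12) binds CCR2 on inflammatory monocytes, and the interferon-induced ligands Cxcl9 and Cxcl10 bind CXCR3 on activated T cells and NK cells. In the kidney, injured tubule cells, endothelium and resident macrophages are known sources of these ligands after ischemia.

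Library totals ran from 5090418 to 33362940 counts. A pair of libraries in the first cohort stood apart. UIRI d7 replicate 4 had a mean correlation of 0.893 with the others of its group, against 0.937 to 0.975 for every other library within its own group. UIRI d3 replicate 3 had summed neutrophil marker transcripts of 2078 CPM (counts scaled to the TMM-adjusted library total), the highest of all libraries. Calls that change without either library are named beside the result. Kidney tubule and glomerulus markers were present in every group. Their summed level ran from 3350 to 6600 CPM in UIRI+Nx d7, 3548 to 4779 CPM in UIRI d7, 5401 to 6309 CPM in UIRI d3 and 13010 to 16050 CPM in Control, and their part in the results was not tested. The deposited libraries are bulk tissue, in which fewer cells of a type and less RNA per cell cannot be told apart.

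Injury was followed by higher levels of most measured ligands. With an adjusted p below 0.05 in edgeR, 19 of the 25 tested members were higher and 2 lower in UIRI d3 than in Control, where 32.7% of all 15701 genes passed (17.8% higher). In UIRI d7 against Control, 20 were higher and 2 lower, against 39.6% of all genes (21.5% higher). In UIRI+Nx d7 against Control, 16 were higher and 2 lower, against 31.3% of all genes (17.3% higher). The median log2 fold change of the members was 2.43, 2.72 and 2.58 in these comparisons, and that of all genes tested was 0.00, 0.04 and 0.02. The 3 comparisons share the Control libraries.

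**Figure D1:**
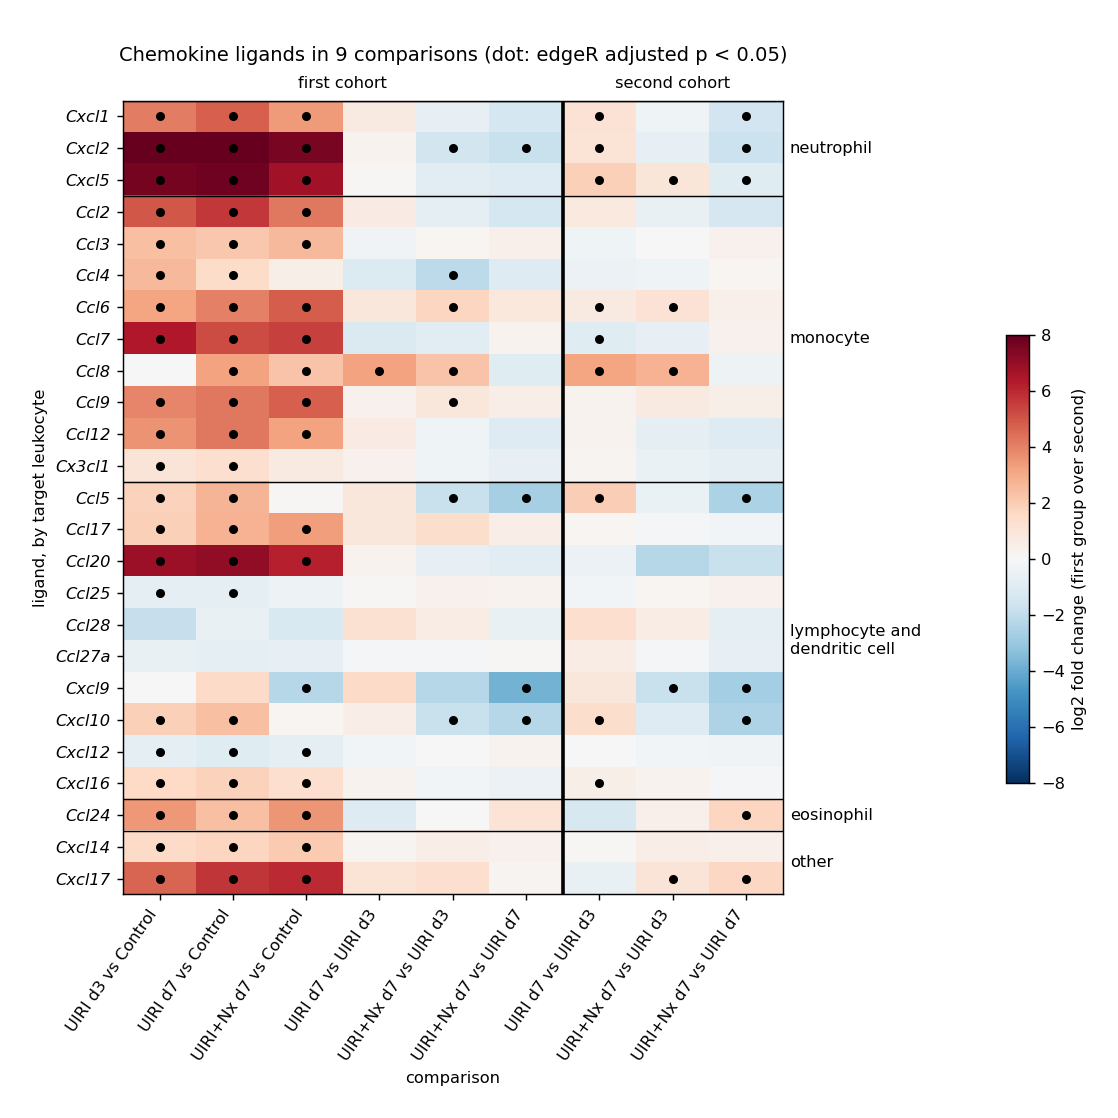
Log2 fold change of the 25 tested chemokine ligands (rows, grouped by target leukocyte) in 6 comparisons of the first cohort and 3 of the second (columns), first-named group over the second, with a dot where the edgeR adjusted p was below 0.05; colours saturate at the ends of the scale. The columns against Control are mostly red, and the columns of UIRI+Nx d7 against UIRI d7 carry 4 dots for the first cohort and 8 for the second.

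Among the neutrophil ligands, all 3 tested members (Cxcl1, Cxcl2, Cxcl5) were higher than in Control in each injured group. Of all genes, 17.8% (UIRI d3), 21.5% (UIRI d7) and 17.3% (UIRI+Nx d7) were higher. Cxcl2 ran from 15.9 to 40.8 CPM (median 26.1) in UIRI d3, against 0 to 0.255 CPM in Control, where the 6 libraries held 4 counts in all. The log2 fold change was 9.11 ± 0.65 (SE, adjusted p = 4.58e-11), and no injured library overlapped a Control library. Cxcl5 averaged 24.3 ± 27 CPM in UIRI d3 and 0.119 ± 0.12 CPM in Control (SD, n = 6 each), a log2 fold change of 7.67 ± 0.67 (adjusted p = 1.68e-09). Its spread at day 3 came from replicate 3, at 78.7 CPM, while the other 5 libraries lay between 6.18 and 17.1 CPM; without it the log2 fold change of Cxcl5 was 6.82 ± 0.48. Cxcl1, known in mouse as KC, averaged 53.1 ± 24 CPM in UIRI d3 and 3.19 ± 2.2 CPM in Control, a log2 fold change of 4.07 ± 0.58 (adjusted p = 3.41e-06).

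After nephrectomy of the opposite kidney, Cxcl2 was lower in both cohorts, and Cxcl1 and Cxcl5 passed in the second. Cxcl2 ran from 4.24 to 16.1 CPM (median 8.34) in UIRI+Nx d7, against 8.61 to 52.9 CPM (median 32.2) in UIRI d7. The 5 UIRI d7 libraries other than replicate 4 lay above every UIRI+Nx d7 library. The log2 fold change was -1.76 ± 0.39 (adjusted p = 0.00551), a level 3.39 times lower. The second cohort's Cxcl2 was at 21.8, 3.31, 7.54 and 8.11 CPM in the 4 UIRI+Nx d7 kidneys, against 21.0 to 43.5 CPM (median 33.4) in UIRI d7, with a log2 fold change of -1.73 ± 0.37 (adjusted p = 0.00824). Only UIRI+Nx d7 replicate 1 reached into the range of UIRI d7 there.

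For Cxcl1, the values were 18.4 to 59.9 CPM (median 28.8) in UIRI+Nx d7 and 5.74 to 132 CPM (median 92.5) in UIRI d7. The lowest UIRI d7 value was replicate 4, and the other 5 lay at 68.1 CPM or higher. The difference did not pass with all libraries (log2 fold change -1.39 ± 0.51, adjusted p = 0.102) and passed without UIRI d7 replicate 4 (-1.64, adjusted p = 0.0176). Cxcl1 in the second cohort was at 51.0, 10.2, 47.0 and 26.7 CPM in UIRI+Nx d7, against 77.1 to 122 CPM in UIRI d7, with no overlap between the groups (log2 fold change -1.50 ± 0.36, adjusted p = 0.0181).

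Cxcl5 lay at 30.0, 11.9, 15.5 and 37.9 CPM in the second cohort's UIRI+Nx d7 kidneys, against 31.0 to 56.0 CPM in UIRI d7 (log2 fold change -0.97 ± 0.27, adjusted p = 0.0436). That call was lost in 7 of 10 fits that each left out 1 library of the 2 groups. In the first cohort Cxcl5 averaged 12.7 ± 2.5 CPM in UIRI+Nx d7 and 25.8 ± 13 CPM in UIRI d7, and the difference did not pass (-1.03 ± 0.44, adjusted p = 0.174).

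The neutrophil ligands also differed between days in the second cohort, where all 3 were higher in UIRI d7 than in UIRI d3. Cxcl5 lay at 31.0 to 56.0 CPM on day 7 and at 7.83 to 17.3 CPM on day 3, without overlap (log2 fold change 1.91 ± 0.25, adjusted p = 6.31e-05). Cxcl1 and Cxcl2 differed by 1.16 ± 0.31 and 1.10 ± 0.31 on the log2 scale (adjusted p = 0.0224 and 0.0292). Without 1 library, the Cxcl2 call was lost in 8 of 12 fits and the Cxcl1 call in 1. All 6 UIRI d3 libraries of that cohort are in block 2a and 4 of the 6 UIRI d7 libraries in block 2c. With the block as a covariate 2 of the 9 members called between these days still passed. Over all genes 349 passed in that fit, against 1330 without the covariate. In the first cohort 0 of the 3 passed between UIRI d7 and UIRI d3 in edgeR, 0 in DESeq2 and 0 at an unadjusted p below 0.05. Cxcl1 averaged 86.8 ± 47 CPM on day 7 and 53.1 ± 24 CPM on day 3, and Cxcl2 averaged 32.3 ± 15 and 26.8 ± 8.4 CPM on those days.

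Cxcl1 and Cxcl2 lie close together on chromosome 5, at chr5:90891241-90893115 and chr5:90903871-90905938 (GRCm38, plus strand). The 250 bases before the RefSeq start of each gene are shown because both neighbours were lower after nephrectomy in the second cohort; capitals mark matches to the NF-kB consensus, searched on both strands.
Cxcl1 promoter, chr5:90890995-90891244, plus strand: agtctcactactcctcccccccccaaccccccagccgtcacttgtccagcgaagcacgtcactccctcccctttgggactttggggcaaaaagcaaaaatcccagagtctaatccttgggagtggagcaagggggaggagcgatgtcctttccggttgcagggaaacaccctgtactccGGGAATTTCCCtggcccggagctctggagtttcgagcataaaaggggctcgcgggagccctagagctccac
Cxcl2 promoter, chr5:90903649-90903898, plus strand: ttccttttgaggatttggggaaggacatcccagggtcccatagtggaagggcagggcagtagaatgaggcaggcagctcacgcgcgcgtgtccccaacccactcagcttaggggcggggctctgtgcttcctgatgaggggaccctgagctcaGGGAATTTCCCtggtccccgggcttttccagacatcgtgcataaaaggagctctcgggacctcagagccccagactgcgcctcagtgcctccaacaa
Both carry the run GGGAATTTCCC, which holds overlapping matches on each strand and begins 71 bases before the start of Cxcl1 and 97 bases before that of Cxcl2. A match to the consensus was found in 3.9% of 32851 RefSeq promoter windows of the same length, and in 6 of the 27 member symbols that had a window. These were Ccl9, Ccl20, Cxcl1, Cxcl2, Cxcl3 and Cxcl10, of which Ccl9 and Ccl20 passed after nephrectomy in neither cohort. A match describes letters and does not show that the factor was bound.

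**Figure D2:**
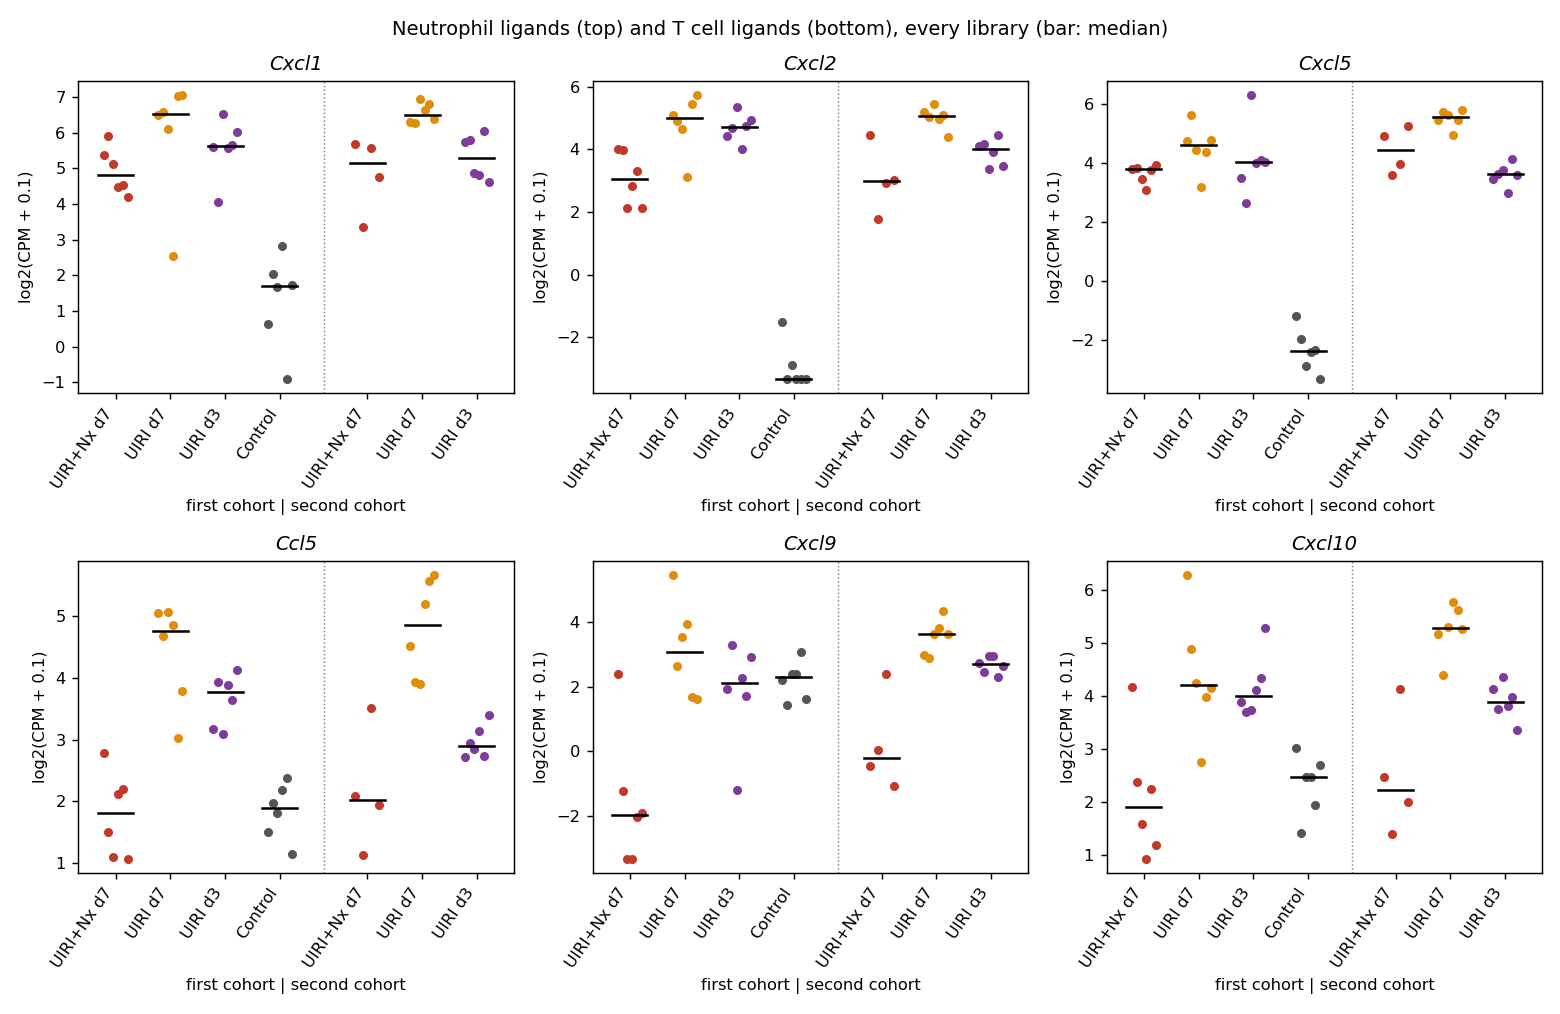
Level of 3 neutrophil ligands (top) and 3 T cell ligands (bottom) in every library, as log2(CPM + 0.1), with a point per kidney and a bar at the group median. In UIRI+Nx d7 the medians of Cxcl2, Ccl5, Cxcl9 and Cxcl10 lie below those of UIRI d7 in both cohorts, and the low UIRI d7 point of Cxcl1 is replicate 4.

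Monocyte ligands were higher after injury in most cases. Of 9 tested members, 8 were higher in UIRI d3 than in Control, 9 in UIRI d7 and 7 in UIRI+Nx d7, and 0 were lower. Over all genes, 17.8%, 21.5% and 17.3% were higher in these comparisons. Ccl2, the main ligand of CCR2, ran from 16.0 to 46.6 CPM (median 32.2) in UIRI d3, against 0.415 to 1.90 CPM in Control. Its log2 fold change was 4.99 ± 0.58 (adjusted p = 1.64e-07). Ccl7, a second CCR2 ligand, averaged 13.1 ± 5.4 CPM in UIRI d3 and 0.153 ± 0.086 CPM in Control (log2 fold change 6.39 ± 0.46, adjusted p = 4.84e-11). Ccl12, a CCR2 ligand of rodents, averaged 4.29 ± 2.9 CPM in UIRI d3 and 0.391 ± 0.53 CPM in Control (log2 fold change 3.57 ± 0.64, adjusted p = 7.36e-05).

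Ccl6 and Ccl9, CCR1 ligands of the mouse that macrophages produce, were higher in all injured groups. Ccl9 lay at 22.1 to 44.0 CPM in UIRI d3 and at 1.36 to 2.94 CPM in Control, without overlap (log2 fold change 3.89 ± 0.30, adjusted p = 1.6e-10). Ccl6 averaged 248 ± 140 CPM in UIRI+Nx d7, 140 ± 71 CPM in UIRI d7, 75.6 ± 17 CPM in UIRI d3 and 8.56 ± 1.2 CPM in Control. It was higher in UIRI+Nx d7 than in UIRI d3 in both cohorts (log2 fold change 1.72 ± 0.32, adjusted p = 0.00132 in the first, and 1.14 ± 0.22, adjusted p = 0.00357 in the second). UIRI d7 of the second cohort also exceeded UIRI d3 (0.74 ± 0.20, adjusted p = 0.0274), a call lost in 6 of 12 fits without 1 library. No strand setting of the counting is given, so the 75858 Ccl6 counts may include reads of an antisense transcript, which itself has 597 counts.

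Ccl8 followed another time course. It ran from 10.97 to 79.3 CPM (median 33.0) in UIRI d7, against 0.337 to 6.70 CPM (median 4.08) in UIRI d3, without overlap, a log2 fold change of 3.23 ± 0.58 (adjusted p = 0.0017). The second cohort had it at 52.2 to 122 CPM in UIRI d7 and at 5.95 to 11.8 CPM in UIRI d3, a log2 fold change of 3.17 ± 0.34 (adjusted p = 8.92e-06). All UIRI d3 libraries of that cohort are in block 2a, and 4 UIRI d7 libraries are in block 2c. At day 3 of the first cohort Ccl8 averaged 3.77 ± 2.5 CPM in UIRI d3 and 3.72 ± 3.5 CPM in Control, which did not pass (adjusted p = 0.986). Ccl8 belongs to the monocyte chemoattractant genes by position and sequence, and mouse Ccl8 is known as a ligand of CCR8 on T helper cells. It was the single member that passed between UIRI d7 and UIRI d3 in the first cohort, where 2.6% of all genes did. Ccl7, lower in UIRI d7, passed as well in DESeq2, without UIRI d7 replicate 1, or without UIRI d3 replicate 3.

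Ccl7 moved the other way with time in the second cohort. It averaged 4.52 ± 1.2 CPM in UIRI d7 and 9.09 ± 2.8 CPM in UIRI d3 (log2 fold change -0.98 ± 0.24, adjusted p = 0.0133). The first cohort had 5.84 ± 1.6 CPM in UIRI d7 and 13.1 ± 5.4 CPM in UIRI d3, a difference that did not pass with all libraries (adjusted p = 0.0551). In all, 8 members were higher and 1 was lower in UIRI d7 than in UIRI d3 of the second cohort, where 8.56% of all 15543 genes passed (4.51% higher and 4.05% lower). With the library block as a covariate, 2 members and 349 genes over all passed there. Blocks were read from the library numbers in the column headers, and the labels do not name them as batches.

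**Figure D3:**
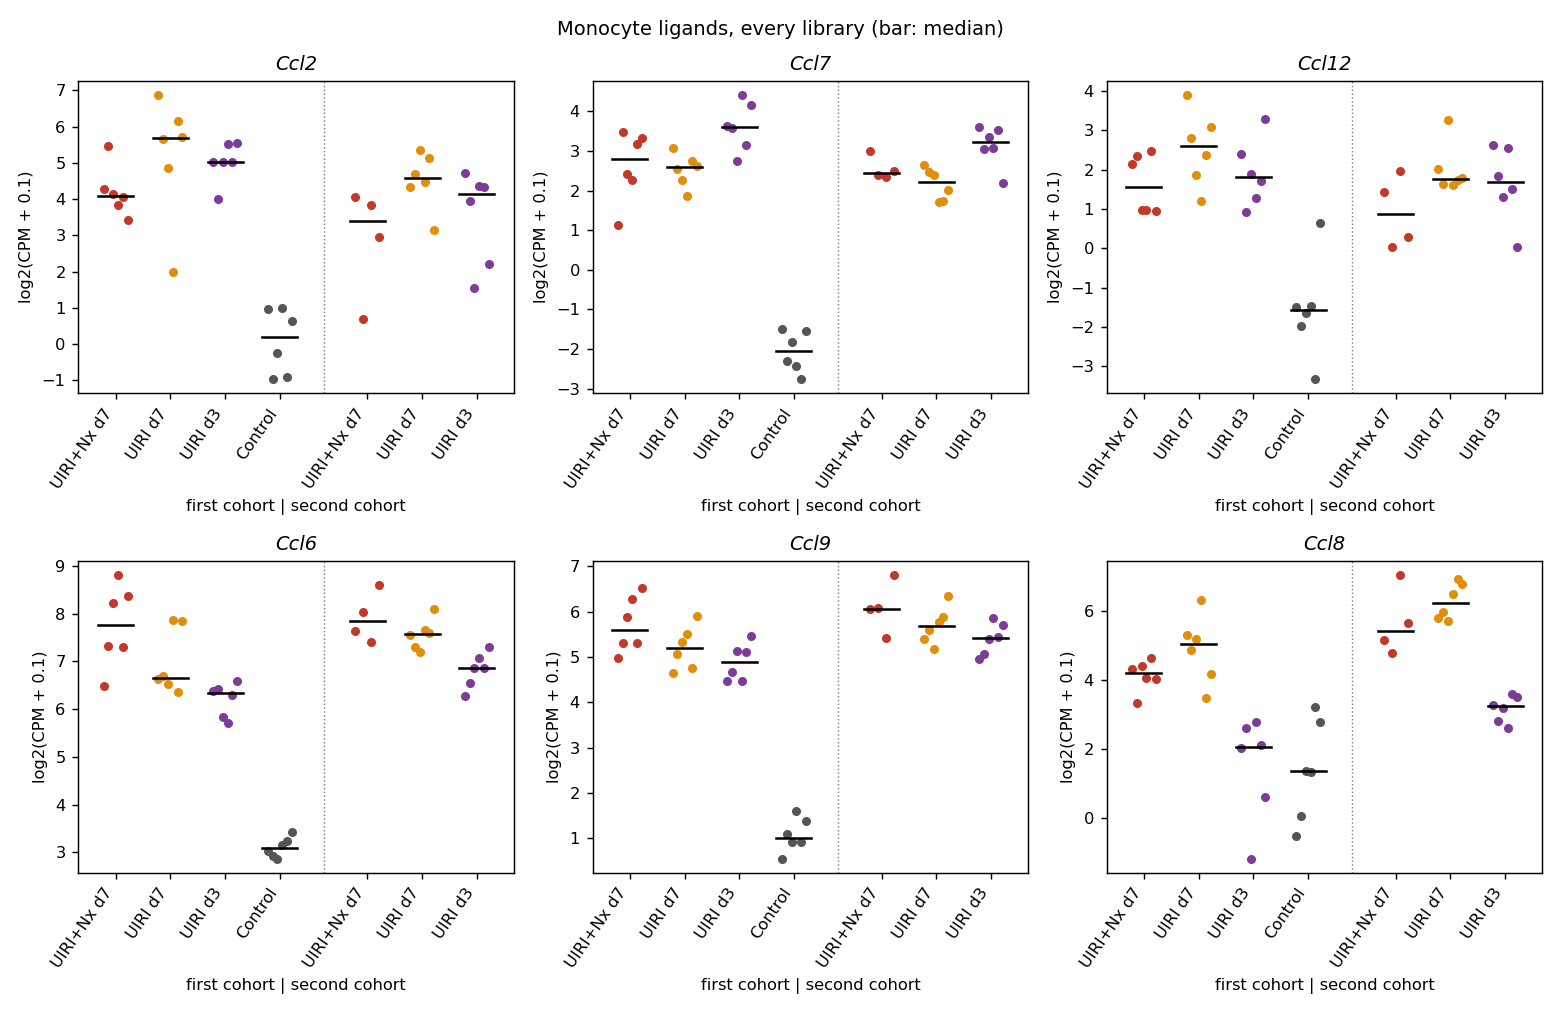
Level of 6 monocyte ligands in every library, as log2(CPM + 0.1), with a point per kidney and a bar at the group median. Ccl8 at day 3 overlaps Control in the first cohort and its day 7 points lie above all day 3 points in both cohorts, while Ccl2, Ccl7, Ccl12, Ccl6 and Ccl9 are already above Control at day 3.

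Of the 9 monocyte ligands, 0 passed in edgeR between UIRI+Nx d7 and UIRI d7 in either cohort. At an unadjusted p below 0.05, 2 were higher and 2 lower in the first cohort, and 2 were lower in the second. DESeq2 called 1 lower in the first cohort (Ccl2) and 0 in the second. Ccl2 was at 10.6 to 44.3 CPM (median 17.0) in UIRI+Nx d7 and at 3.90 to 116 CPM (median 51.1) in UIRI d7, with a log2 fold change of -1.40 ± 0.48 (adjusted p = 0.0766). It passed in DESeq2 (adjusted p = 0.0316) and without UIRI d7 replicate 4 (-1.64, adjusted p = 0.00936) or UIRI+Nx d7 replicate 2 (-1.78, adjusted p = 0.0334). Ccl2 of the second cohort was at 16.7, 1.52, 14.2 and 7.61 CPM in UIRI+Nx d7 and at 8.80 to 41.2 CPM in UIRI d7 (-1.37 ± 0.59, adjusted p = 0.207). Ccl8 of that cohort passed as lower without UIRI+Nx d7 replicate 3 (-1.12, adjusted p = 0.0281). In the first cohort Ccl6 passed as higher without UIRI+Nx d7 replicate 1 (1.01, adjusted p = 0.0331) or UIRI d7 replicate 4 (1.04, adjusted p = 0.0497). Ccl9 of the first cohort ran from 0.37 to 0.73 over the fits without 1 library and passed in 0 of them. Ccl6 averaged 254 ± 96 CPM in UIRI+Nx d7 and 193 ± 45 CPM in UIRI d7 of the second cohort, and Ccl9 averaged 72.3 ± 29 and 53.4 ± 16 CPM in those groups.

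Ccl3 and Ccl4 are macrophage inflammatory proteins, and Cx3cl1 (fractalkine) is a membrane-bound ligand of CX3CR1. Ccl4 was higher in UIRI d3 than in Control (5.98 ± 4.6 and 0.995 ± 0.18 CPM, log2 fold change 2.57 ± 0.44, adjusted p = 4.02e-05). It was lower in UIRI+Nx d7 than in UIRI d3 (1.36 ± 0.76 and 5.98 ± 4.6 CPM, log2 fold change -2.12 ± 0.43, adjusted p = 0.00359), with 14.4 CPM in UIRI d3 replicate 3. Ccl4 of the second cohort averaged 2.59 ± 1.1 CPM in UIRI+Nx d7 and 3.24 ± 1.3 CPM in UIRI d3, which did not pass. Cx3cl1 averaged 203 ± 100 CPM in UIRI d7 and 79.0 ± 36 CPM in Control (log2 fold change 1.36 ± 0.40, adjusted p = 0.00788). Its call in UIRI d3 (adjusted p = 0.0451) was lost in 9 of 12 fits without 1 library, among them that without UIRI d3 replicate 3 (0.99, adjusted p = 0.0766). Ccl3 stayed at or below 3.93 CPM in every library and was higher than Control in each injured group of the first cohort.

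Of the lymphocyte and dendritic cell ligands, 10 members were tested, and 3 of them were lower in UIRI+Nx d7 than in UIRI d7 in both cohorts: Ccl5, Cxcl9 and Cxcl10. With Cxcl2 they were the 4 members that passed in the first cohort, where 6.62% of all genes did (3.46% lower), and 0 members were higher (3 at an unadjusted p below 0.05, and 0 in DESeq2). In the second cohort 6 members were lower and 2 higher, and 5.24% of all genes passed (2.66% lower). The median log2 fold change over the members was -0.60 (first cohort) and -0.41 (second), against -0.01 and 0.01 for all genes tested.

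Ccl5 (RANTES), which T cells and macrophages produce, ran from 1.996 to 6.80 CPM (median 3.48) in UIRI+Nx d7, against 8.04 to 33.5 CPM (median 27.2) in UIRI d7. The groups did not overlap, and the log2 fold change was -2.66 ± 0.34 (adjusted p = 2.15e-05), a level 6.30 times lower. The second cohort had 4.15, 2.08, 11.3 and 3.74 CPM in UIRI+Nx d7, against 14.8 to 50.9 CPM (median 29.8) in UIRI d7, again without overlap (log2 fold change -2.55 ± 0.43, adjusted p = 0.0017). After injury alone Ccl5 was higher than Control at day 3 and at day 7 (log2 fold change 1.83 ± 0.33 and 2.72 ± 0.34, adjusted p = 9.01e-05 and 3.88e-07). UIRI+Nx d7 averaged 3.71 ± 1.9 CPM and Control 3.60 ± 1.1 CPM, and their difference did not pass (adjusted p = 0.915). Within library block 1a of the first cohort, Ccl5 was the single member that still passed (-2.86, adjusted p = 0.0119).

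Cxcl10 lay at 1.80 to 17.9 CPM (median 3.75) in UIRI+Nx d7 and at 6.66 to 78.0 CPM (median 18.3) in UIRI d7. The 2 groups overlapped through UIRI+Nx d7 replicate 1, the highest of its group, and UIRI d7 replicate 4, the lowest of its own. The log2 fold change was -2.27 ± 0.53 (adjusted p = 0.00877). Cxcl10 of the second cohort was at 5.40, 2.51, 17.4 and 3.87 CPM in UIRI+Nx d7, all below the 20.9 to 54.9 CPM of UIRI d7 (log2 fold change -2.45 ± 0.41, adjusted p = 0.00163). In UIRI d7 it exceeded Control (27.8 ± 26 and 5.26 ± 1.9 CPM, log2 fold change 2.42 ± 0.53, adjusted p = 0.000555), and in UIRI+Nx d7 it did not pass against Control (5.74 ± 6.1 CPM, adjusted p = 0.871).

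Cxcl9 had the lowest log2 fold change of the 25 tested members between UIRI+Nx d7 and UIRI d7 in both cohorts. It was at 0 CPM in 2 of the 6 UIRI+Nx d7 libraries, with a median of 0.156 CPM and a highest value of 5.10 CPM in replicate 1, against 2.95 to 43.9 CPM (median 8.78) in UIRI d7. Its log2 fold change was -3.79 ± 0.87 (adjusted p = 0.00814) with all libraries and -6.76 without UIRI+Nx d7 replicate 1. The second cohort had 0.623, 0.918, 5.17 and 0.374 CPM in UIRI+Nx d7, against 7.24 to 20.0 CPM in UIRI d7, without overlap (log2 fold change -2.72 ± 0.49, adjusted p = 0.00263; -4.10 without UIRI+Nx d7 replicate 3). Cxcl9 was also present in uninjured kidney, and it averaged 4.84 ± 3.3 CPM in UIRI d3 and 4.78 ± 2.1 CPM in Control, a pair that did not pass (adjusted p = 0.985). UIRI+Nx d7 lay below Control (log2 fold change -2.25 ± 0.85, adjusted p = 0.0434), a call lost in 9 of 12 fits without 1 library.

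The 4 ligands that were lower after nephrectomy in both cohorts kept their calls in every fit that left out 1 library, and in the fits with RLE size factors, DESeq2, no filter, only the compared groups, a replicate block and the library block as a covariate. Within single blocks fewer libraries remained, and 1 member passed in block 1a, 3 in block 2a and 1 in block 2c. Without UIRI d7 replicate 4 alone, 7 members passed in the first cohort instead of 4, with Cxcl1 and Ccl2 lower and Ccl6 higher. Without that library and UIRI d3 replicate 3 together, the number was also 7, with Cxcl1, Ccl2 and Cxcl5 added, all lower. Over all genes 880 passed in that fit.

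Cxcl9 and Cxcl10 are neighbours at chr5:92321347-92328079 and chr5:92346638-92348889 (GRCm38, minus strand). Their promoter windows are shown because both genes fell together after nephrectomy; capitals mark the NF-kB consensus and the core of the interferon-stimulated response element (GAAA and GAAA parted by any 2 bases), searched on both strands.
Cxcl10 promoter, chr5:92348890-92349139, minus strand: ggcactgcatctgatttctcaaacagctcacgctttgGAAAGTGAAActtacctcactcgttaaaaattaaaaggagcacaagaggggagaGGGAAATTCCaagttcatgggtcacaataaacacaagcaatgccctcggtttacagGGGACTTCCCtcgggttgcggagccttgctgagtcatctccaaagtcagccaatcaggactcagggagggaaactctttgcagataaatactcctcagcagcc
Cxcl9 promoter, chr5:92328080-92328329, minus strand: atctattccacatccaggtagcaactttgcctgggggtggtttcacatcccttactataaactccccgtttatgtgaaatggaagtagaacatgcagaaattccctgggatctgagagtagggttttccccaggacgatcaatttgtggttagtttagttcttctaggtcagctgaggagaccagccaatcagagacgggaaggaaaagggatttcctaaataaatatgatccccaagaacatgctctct
The Cxcl10 window held GAAAGTGAAA beginning 213 bases before the start and NF-kB matches beginning 159 and 103 bases before it, with no overlap between them. Neither motif was in the Cxcl9 window, which says nothing of the factors themselves. The interferon core was found in 2.98% of all windows and in 3 member symbols with a window (Ccl19, Cxcl10, Cxcl14).

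**Figure D4:**
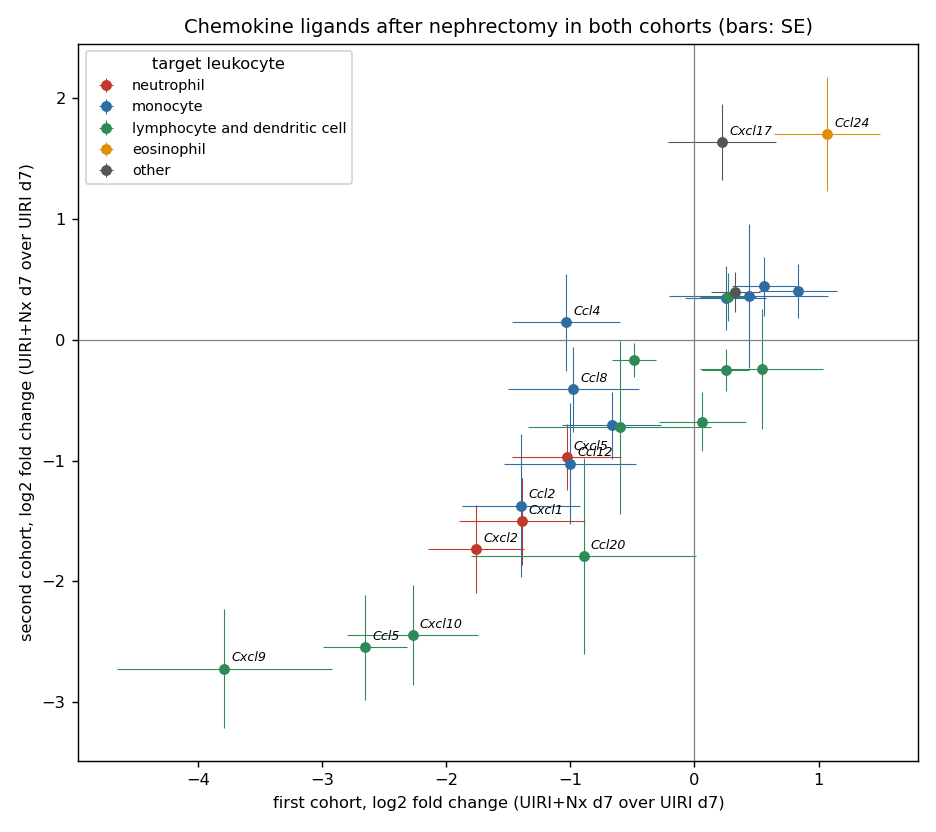
Log2 fold change of UIRI+Nx d7 over UIRI d7 for the 25 tested ligands in the first cohort (horizontal) and the second (vertical), with bars of 1 SE and colours for the target leukocyte; members beyond 0.9 in either cohort are labelled. Ccl5, Cxcl9 and Cxcl10 lie lowest in both cohorts, and the neutrophil ligands lie between -0.97 and -1.76 on both axes.

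The other lymphocyte ligands did not pass between UIRI+Nx d7 and UIRI d7 in either cohort, and several differed from Control. Cxcl16, a transmembrane ligand of CXCR6, was higher than Control in each injured group (160 ± 37 CPM in UIRI d7 and 44.9 ± 11 CPM in Control, log2 fold change 1.83 ± 0.18, adjusted p = 8.27e-09). Cxcl12 (SDF-1), a ligand of CXCR4 made by stromal cells, was lower than Control in each injured group. It lay at 58.4 to 93.0 CPM (median 63.7) in UIRI d7 and at 83.0 to 171 CPM (median 143) in Control, a log2 fold change of -0.999 ± 0.19 (adjusted p = 0.000106). Ccl17, a CCR4 ligand of dendritic cells, averaged 4.48 ± 3.1 CPM in UIRI+Nx d7 and 0.436 ± 0.12 CPM in Control (log2 fold change 3.34 ± 0.57, adjusted p = 4.5e-05). Ccl20, the ligand of CCR6, had 1 count in all Control libraries, reached 6.12 CPM in UIRI d3 and 8.14 CPM in UIRI d7, and was at 0 in some libraries of each injured group of the first cohort. Ccl25, a CCR9 ligand, was lower in UIRI d3 than in Control (9.29 ± 1.3 and 15.9 ± 3.5 CPM, adjusted p = 0.00913), but its antisense neighbour Elavl1 had 95449 counts, so the reads may not all be its own. Ccl27a and Ccl28 passed in no comparison with all libraries. Ccl28 was at -1.82 ± 0.74 in UIRI d3 against Control (adjusted p = 0.0611) and passed without UIRI d3 replicate 3 (-3.33, adjusted p = 0.00108) or Control replicate 4 (-2.02, adjusted p = 0.0385). Ccl27a passed in UIRI d7 against Control without UIRI d7 replicate 1 (-1.04, adjusted p = 0.0199), and its 3380 counts lie opposite Il11ra1, which has 162649.

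Outside these classes, Cxcl14 and Cxcl17 were higher than Control in each injured group. Cxcl14, an epithelial chemokine whose receptor is debated, averaged 159 ± 44 CPM in UIRI+Nx d7, 126 ± 31 CPM in UIRI d7, 109 ± 22 CPM in UIRI d3 and 37.9 ± 7.5 CPM in Control. Cxcl17, known from mucosal epithelium, was at 3.42, 3.83, 4.36 and 4.12 CPM in the UIRI+Nx d7 kidneys of the second cohort, against 0.401 to 2.01 CPM in UIRI d7, without overlap. Its log2 fold change there was 1.64 ± 0.31 (adjusted p = 0.00399). In the first cohort it averaged 4.47 ± 2.6 CPM in UIRI+Nx d7 and 3.90 ± 1.3 CPM in UIRI d7 (adjusted p = 0.833). Ccl24, an eosinophil ligand of CCR3, was at 5.08, 2.48, 1.26 and 2.87 CPM in UIRI+Nx d7 of the second cohort and at 0.143 to 1.64 CPM in UIRI d7 (log2 fold change 1.70 ± 0.48, adjusted p = 0.0421), a call lost in 7 of 10 fits without 1 library.

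Against UIRI d3, UIRI+Nx d7 had 3 members higher and 4 lower in the first cohort, where 5.13% of all genes passed. The higher ones were Ccl6, Ccl8 and Ccl9, and the lower ones were Ccl4, Ccl5, Cxcl2 and Cxcl10. In the second cohort 4 were higher (Ccl6, Ccl8, Cxcl5, Cxcl17) and 1 lower (Cxcl9), against 6.02% of all genes (2.97% higher and 3.04% lower). Ccl8 was at 9.88 to 24.8 CPM in UIRI+Nx d7 and at 0.337 to 6.70 CPM in UIRI d3 of the first cohort (log2 fold change 2.25 ± 0.56, adjusted p = 0.0163). Ccl8 of the second cohort was at 35.7, 27.6, 133 and 50.5 CPM in UIRI+Nx d7 and at 5.95 to 11.8 CPM in UIRI d3 (2.76 ± 0.36, adjusted p = 0.0001). Without 1 library, the first cohort's calls of Cxcl10, Ccl9 and Cxcl2 were lost in 9, 8 and 2 of 12 fits, and those of Cxcl17, Cxcl5 and Cxcl9 in the second were lost in 8, 7 and 6 of 10. Cxcl9 of the first cohort passed as lower without UIRI+Nx d7 replicate 1 (-5.25, adjusted p = 0.000882). Second-cohort Cxcl10 passed as lower without UIRI+Nx d7 replicate 3 (-1.99, adjusted p = 0.000709) and Cxcl2 without replicate 1 (-1.33, adjusted p = 0.00986). In some such fits of that cohort Ccl7 and Ccl20 also passed as lower, and Ccl9 and Cxcl14 as higher. Without UIRI d3 replicate 3 of the first cohort, Ccl9 no longer passed (adjusted p = 0.0508) and Cxcl17 did (1.70, adjusted p = 0.0268). Within block 2b of the first cohort 1 member passed between these groups, and within block 1a 0 did. Over all genes, 37 passed within block 2b and 113 within block 1a, against 805 with all libraries. Leaving out UIRI+Nx d7 replicate 3 or replicate 4 left 4 members in the first cohort. In the second, 2 or 3 members passed without UIRI+Nx d7 replicate 2 or 4 or UIRI d3 replicate 1, 2 or 4, and DESeq2 called 8. Over all genes DESeq2 called 1373 there, against 935 in edgeR.

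A difference of the changes between cohorts was fitted as an interaction term over 16372 genes in edgeR, with libraries of both cohorts in 1 model and 27 members tested. In each of the 3 shared comparisons 0 members passed, as did 0% of all genes. At an unadjusted p below 0.05, 1 member differed in UIRI+Nx d7 against UIRI d7 (Cxcl17), 3 in UIRI d7 against UIRI d3 (Ccl5, Cxcl17, Cxcl5) and 4 in UIRI+Nx d7 against UIRI d3 (Ccl4, Ccl5, Cxcl16, Cxcl5). Over all genes, 1429, 485 and 1147 had an unadjusted p below 0.05 in these comparisons. DESeq2 called 0 members, and 7, 0 and 4 genes over all. For Ccl5 the nephrectomy effect in the second cohort minus that in the first was 0.11 ± 0.54 on the log2 scale, for Cxcl10 it was -0.17 ± 0.72 and for Cxcl2 0.06 ± 0.54.

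T and NK cell transcripts were lower together with Ccl5, Cxcl9 and Cxcl10. Of 13 listed T and NK cell markers, 8 were tested, and 7 (first cohort) and 4 (second) were lower in UIRI+Nx d7 than in UIRI d7 in edgeR, 8 and 8 in DESeq2, with none higher by either, against 3.46% and 2.66% of all genes lower in edgeR (median log2 fold change -2.99 and -2.07). Their summed level ran from 1.52 to 11.2 CPM in UIRI+Nx d7 and from 18 to 50.01 CPM in UIRI d7, and in the second cohort from 1.68 to 9.54 and from 17.3 to 35.6 CPM. Of the 13 markers 0 were at 0 in all libraries of a group. Cxcr3, the receptor of Cxcl9 and Cxcl10, fell by 2.31 on the log2 scale in the first cohort (adjusted p = 0.0201), and its value in the second was -2.63 (adjusted p = 0.06). The part of these cells in the lower ligand levels was not tested.

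**Figure D5:**
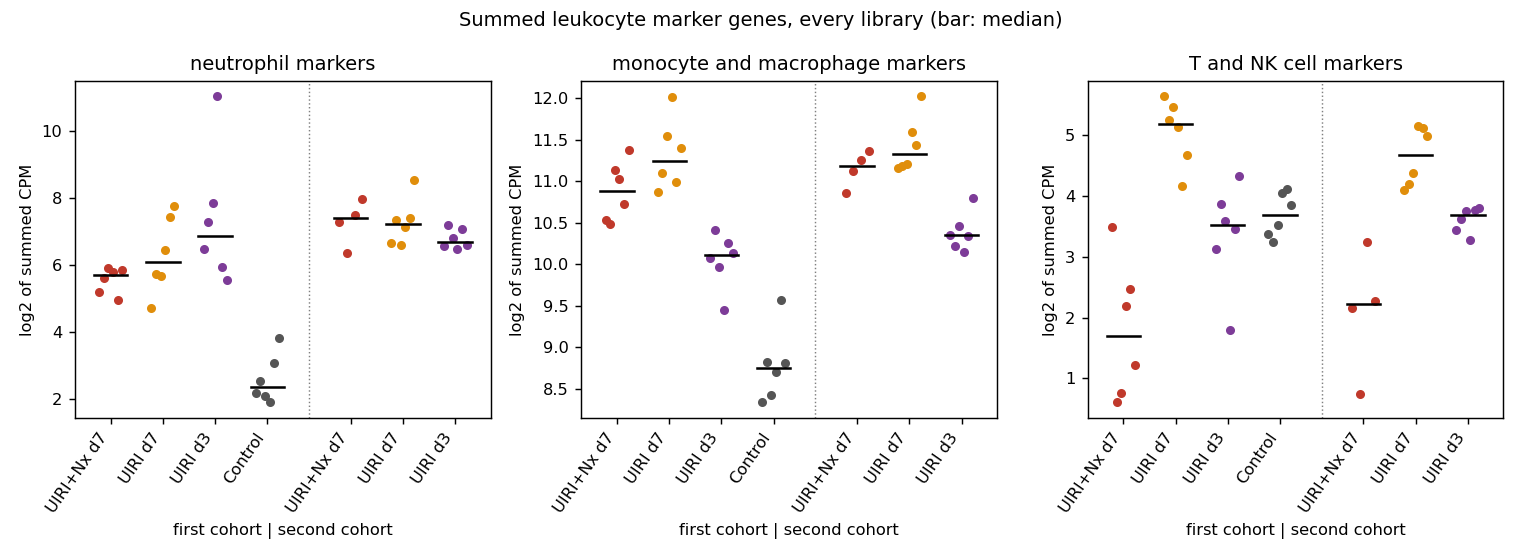
Summed level of the neutrophil, monocyte and macrophage, and T and NK cell marker genes in every library, as log2 of the summed CPM, with a point per kidney and a bar at the group median. T and NK cell markers lie between 1.52 and 11.2 CPM in UIRI+Nx d7, below the 18 to 50.01 CPM of UIRI d7, and the highest neutrophil point is UIRI d3 replicate 3.

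Of 18 listed chemokine receptors, 11 were tested, and 5 (first cohort) and 4 (second) were lower in UIRI+Nx d7 than in UIRI d7 in edgeR, with 0 higher (DESeq2 called 6 and 5 lower, and 1 and 0 higher), against 3.46% and 2.66% of all genes lower in edgeR. These included Cx3cr1 (-1.71 ± 0.35, adjusted p = 0.00331), Cxcr6 (-2.99 ± 0.72, adjusted p = 0.0112) and Xcr1, a receptor of type 1 dendritic cells (-4.19 ± 0.86, adjusted p = 0.00343), in the first cohort. In the second, Ccr2 (-1.33 ± 0.23, adjusted p = 0.00186), Ccr7 (-2.70 ± 0.61, adjusted p = 0.0123) and Xcr1 (-3.38 ± 0.69, adjusted p = 0.00639) were lower. Ccr1, a receptor of Ccl6 and Ccl9, was at 7.27 to 14.5 CPM in UIRI+Nx d7 and at 1.49 to 6.87 CPM in UIRI d7 of the first cohort, without overlap, and did not pass (1.28 ± 0.43, adjusted p = 0.0712); in the second it averaged 6.50 ± 1.9 and 4.91 ± 0.82 CPM in these groups (0.41 ± 0.23, adjusted p = 0.345). Cxcr2, the neutrophil receptor, did not pass in either cohort, and of the tested neutrophil markers 0 of 7 (first cohort) and 0 of 8 (second) passed, with 0 at an unadjusted p below 0.05 and 0 in DESeq2. Summed neutrophil markers ran from 30.8 to 59.4 CPM in UIRI+Nx d7 and from 26.1 to 215 CPM in UIRI d7. Cxcr4 was higher in UIRI d7 than in Control (1.60 ± 0.34, adjusted p = 0.000417).

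Of 15 monocyte and macrophage markers, 13 were higher in UIRI d3 than in Control, 14 in UIRI d7 and 12 in UIRI+Nx d7, against 17.8%, 21.5% and 17.3% of all genes. Ly6c2 was lower in UIRI+Nx d7 than in Control (-1.72 ± 0.45, adjusted p = 0.0039). Between UIRI+Nx d7 and UIRI d7, 3 were lower and 0 higher in each cohort, against 3.46% and 2.66% of all genes lower. Among the lower ones, in both, was Adgre1, which encodes F4/80 (-1.04 ± 0.27 and -0.85 ± 0.20, adjusted p = 0.0175 and 0.0183). Cd68 did not pass in either (adjusted p = 0.878 and 0.757). Their summed level ran from 1434 to 2653 CPM in UIRI+Nx d7 and from 1877 to 4149 CPM in UIRI d7. Of 5 injured tubule markers, Vcam1 (-1.68 and -1.23, adjusted p = 2.92e-05 and 0.0115) and Havcr1, which encodes KIM-1 (-1.59 and -1.79, adjusted p = 0.00668 and 0.00372), were lower in UIRI+Nx d7 than in UIRI d7 in both cohorts, while Lcn2 was higher in the second (1.08, adjusted p = 0.00565). The summed level of these markers was 673.5 to 1089 CPM in UIRI+Nx d7 and 865.2 to 1928 CPM in UIRI d7, and in the second cohort 994.9 to 1513 and 1385 to 2266 CPM. Of 5 tested dendritic cell markers, 2 and 3 were lower (median -1.55 and -2.54), with 0 higher, against 3.46% and 2.66% of all genes lower. The part of these cells in the ligand levels was not tested. The marker lists share genes with the receptor list: Xcr1 and Ccr7 (dendritic cell), Ccr2 and Cx3cr1 (monocyte and macrophage) and Cxcr2 (neutrophil). A call of a shared gene enters both counts, so these counts are not separate observations. Pf4, a platelet and macrophage chemokine whose symbol lies outside the member rule, was higher in UIRI d3 than in Control (4.68 ± 0.38, adjusted p = 3.56e-10).

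The 9 members with counts that did not pass the filter held few reads over the 40 libraries. Ccl22 had 187 counts, Cxcl13 149, Xcl1 123, Ccl11 93, Cxcl3 90, Ccl1 48, Cxcl15 22, Ccl19 6 and Ccl26 1. Another 10 identifiers had 0 counts in every grouped library: 7 are copies on unplaced scaffolds, and the others are Ccl21a, Ccl21b and Ccl27b on chromosome 4. These genes have near-identical copies, and the treatment of reads that map to several places is not given in the sources used here, so a count of 0 does not show absence. Cxcl11, the third CXCR3 ligand, is annotated as a polymorphic pseudogene and was not a member.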

How the data were processed

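The authors deposited 1 table of raw counts, made from QuantSeq 3′ reads per the labels' protocols, with 40 kidney libraries and a column titled UNDETERMINED without a group, which entered no comparison. The submitters' processing notes name Trimmomatic, STAR and HTSeq 0.6.1 with GRCm38 for the first cohort, and STAR 2.7.11b with GRCm39 for the second. Strand setting, annotation release and the second cohort's counting tool are not given in the labels or headers. Positions and symbols come from GENCODE on GRCm38 (48435 of 48795 identifiers matched), promoters from RefSeq on GRCm38.p6.

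Each cohort was fitted with all its groups in edgeR 4.0.16 (R 4.3.3; quasi-likelihood F test, TMM scaling, filterByExpr with a minimum count of 10), with p adjusted by Benjamini-Hochberg over all genes tested and a threshold of 0.05. CPM use TMM-scaled totals. SE is the log2 fold change over the square root of F. DESeq2 1.42.0, RLE size factors, no filter, a replicate block, the library block, only the compared groups and leaving out each library were alternatives; leaving out both libraries that stood apart was chosen after seeing the data. The script was tested on simulated data. Members, lists and tests were chosen with earlier results of these data known.

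Per-library values or ranges were planned for members with a group mean of at least 5 CPM and at least 3 calls in 9 comparisons. They were also planned for members called after nephrectomy in both cohorts. Several of these members, among them Ccl4, Ccl6, Ccl7, Ccl12, Cxcl14 and Cxcl16, are given in the text by group means instead. The others are given by group means, ranges and calls. Ccl24 and Cxcl17 are given per library in the second cohort, chosen after their values were seen. Samples with equal replicate numbers were not treated as paired in the main fits. Correlations of their deviations from group means ran from -0.424 to 0.447, a range that does not settle whether they were pairs. The labels do not say that the samples of a group came from separate mice, so p-values measure the spread between these samples. Intervals for the column without a group are Wilson intervals at 95% confidence and cover counting error only. The result of 1 receptor is not reported here.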

Additional observations from a re-analysis of the deposited data

Results flagged for a closer look

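In 15 of 112 groups of values examined (named ligands in groups of 4 to 6 kidneys), the highest library lay far from the rest of its group. Chance gives about 1 in 20 such groups for normally distributed values. CPM were examined without a log transform, so that rate may not hold here and 15 of 112 is not shown to be an excess. In UIRI+Nx d7 of the first cohort, replicate 1 was highest for Cxcl9 (5.10 CPM, others 0 to 0.326 CPM) and Cxcl10 (17.9 CPM, others 1.80 to 5.11 CPM), replicate 2 for Ccl2 (44.3 CPM, others 10.6 to 19.4 CPM) and replicate 6 for Cxcl16 (153 CPM, others 96.7 to 117 CPM). UIRI d7 replicate 1 was highest for Cxcl9 (43.9 CPM, others 2.95 to 15.3 CPM), Cxcl10 (78.0 CPM, others 6.66 to 29.7 CPM) and Cxcl12 (93.0 CPM, others 58.4 to 66.0 CPM).

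In UIRI d3, replicate 3 was highest for Cxcl5 (78.7 CPM, others 6.18 to 17.1 CPM) and replicate 6 for Cxcl10 (39.0 CPM, others 12.9 to 20.0 CPM). In Control, replicate 6 was highest for Ccl12 (1.45 CPM, others 0 to 0.260 CPM) and replicate 1 for Cxcl2 (0.255 CPM, others 0 to 0.0369 CPM). Among second-cohort kidneys, Cxcl9 was highest in UIRI+Nx d7 replicate 3 (5.17 CPM, others 0.374 to 0.918 CPM), Ccl12 in UIRI d7 replicate 3 (9.47 CPM, others 2.97 to 3.96 CPM), Cxcl16 in UIRI d7 replicate 6 (216 CPM, others 136 to 163 CPM) and Cxcl12 in UIRI d3 replicate 4 (104 CPM, others 53.9 to 61.1 CPM).

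The column without a group is titled UNDETERMINED, a name usual for reads that were assigned to no library, so it may mix reads of several kidneys and is no sample of its own. It entered no comparison. Its summed ligand levels, in CPM without TMM scaling (12446693 counts in all), lay above all Control libraries in each of the 5 classes. Neutrophil ligands were at 75.8 (95% Wilson interval 71.1 to 80.8), against 0.421 to 6.01 in Control. Monocyte ligands were at 395.7 (384.8 to 406.9), against 50.8 to 138.1 in Control. Eosinophil ligands were at 2.49 (1.76 to 3.54), against 0.115 to 0.520 in Control, and Cxcl14 and Cxcl17 together were at 111.1 (105.4 to 117.1), against 21.1 to 39.5 in Control. Lymphocyte and dendritic cell ligands were at 232.6 (224.3 to 241.2), an interval that reaches below the highest Control library (148.4 to 229.2).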

How the results depend on the processing

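Of the 95 calls of single ligands, 79 held in every fit without 1 library, and no alternative turned one of the 95 round. The number of ligands called without 1 library ran from 20 to 22 in UIRI d3, 21 to 23 in UIRI d7 and 17 to 18 in UIRI+Nx d7 against Control. It ran from 4 to 7 in UIRI+Nx d7 against UIRI d7, 1 to 2 in UIRI d7 against UIRI d3 and 4 to 9 in UIRI+Nx d7 against UIRI d3. The second cohort gave 6 to 8, 6 to 9 and 2 to 7 in these comparisons.

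The number moved by more than 1.5 times in the following fits. UIRI+Nx d7 against UIRI d7 gave 4 ligands, 1 within block 1a and 7 without both libraries that stood apart. UIRI d7 against UIRI d3 gave 1 ligand, 2 with DESeq2, 2 with only the compared groups, 0 within block 1a and 3 without both libraries. UIRI+Nx d7 against UIRI d3 gave 7, 0 within block 1a and 1 within block 2b. For the second cohort, UIRI+Nx d7 against UIRI d7 gave 8, 3 within block 2a and 1 within block 2c; UIRI d7 against UIRI d3 gave 9, 2 with the library block as a covariate and 3 within block 2a; UIRI+Nx d7 against UIRI d3 gave 5, 8 with DESeq2 and 3 with only the compared groups. Fits within a block hold fewer libraries; the cause of the other shifts was not tested. The tests of a difference between cohorts gave 0 ligands in every alternative run.

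Fits without 1 library turned the sign of 27 of the 225 member values followed in them, none of which had passed; among them are Ccl8 (-0.23 to 0.55) and Cxcl9 (-0.30 to 0.26) in UIRI d3 against Control, Cxcl5 in UIRI d7 against UIRI d3 (-0.19 to 0.95) and Cxcl17 in UIRI+Nx d7 against UIRI d7 (-0.13 to 0.41). The values followed under every alternative changed sign as follows. In UIRI+Nx d7 against Control, Ccl5 was at -0.18 within block 2b, -0.20 without UIRI+Nx d7 replicate 1, -0.003 without Control replicate 1 and -0.05 without Control replicate 6, and Cxcl10 was at -0.19 with the replicate block, -0.55 within block 2b and -0.67 without UIRI+Nx d7 replicate 1. After nephrectomy, Ccl7 was at -0.072 with the library block as a covariate, and Ccl4 of the second cohort was at -0.23 within block 2a and -0.13 without UIRI+Nx d7 replicate 1. Over all fits without 1 library, Ccl5 ran from -0.20 to 0.19, Cxcl10 from -0.67 to 0.34 and Ccl4 from -0.13 to 0.37; the cause was not tested.

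With the replicate block, 4 of the 95 calls no longer passed: Cx3cl1 in UIRI d3 against Control (1.02, adjusted p = 0.088), Cxcl5 in UIRI+Nx d7 against UIRI d7 (-0.91, adjusted p = 0.115) and against UIRI d3 (1.02, adjusted p = 0.0664), and Cxcl17 in UIRI+Nx d7 against UIRI d3 (0.96, adjusted p = 0.105), the last 3 in the second cohort. The replicate block left the number of called ligands within 1.5 times in every comparison. With the library block as a covariate, 12 of the 95 calls no longer passed. Over all genes, the number called moved by more than 1.5 times for UIRI d7 against UIRI d3 (409 genes, 714 in DESeq2), UIRI+Nx d7 against UIRI d7 (1040, 586 with only the compared groups) and, in the second cohort, UIRI+Nx d7 against UIRI d7 (814, 1249 in DESeq2) and UIRI d7 against UIRI d3 (1330, 349 with the library block), besides fits within a block.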

Other observations

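Of the 12 listed cytokines that act upstream of chemokines, 6 were tested, and 5 were higher in UIRI d3 than in Control, where 17.8% of all genes were. Tnf, a cytokine that induces neutrophil and monocyte ligands through NF-kB, was higher in UIRI d3 than in Control (log2 fold change 3.55 ± 0.59, adjusted p = 3.19e-05) and lower in UIRI+Nx d7 than in UIRI d7 in the first cohort (-1.78 ± 0.52, adjusted p = 0.0351). Its value in the second cohort was -0.96 ± 0.43 (adjusted p = 0.233). Of the 6 tested cytokines, Tnf alone passed after nephrectomy in the first cohort, where their median log2 fold change was -0.545. Second-cohort calls numbered 0 of 6, with a median of 0.05. Ifng, the listed gene of interferon gamma, was at 0 CPM in every UIRI+Nx d7 library of both cohorts. In UIRI d7 it averaged 0.170 CPM (first cohort) and 0.059 CPM (second), too low to compare. The part of these cytokines in the ligand levels was not tested. Il1b, which encodes interleukin-1 beta, was higher in UIRI d7 than in Control (2.07 ± 0.48, adjusted p = 0.000948), and between UIRI+Nx d7 and UIRI d7 it was at -1.48 ± 0.47 and -1.08 ± 0.33 in the first and second cohort (adjusted p = 0.0555 and 0.0656).

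Of 5 listed scavenging or atypical chemokine receptors, 2 were tested. Ackr3, which binds and removes Cxcl12, was higher in UIRI d7 than in Control (0.82 ± 0.22, adjusted p = 0.0033). Ccrl2, which binds chemerin, was lower in UIRI+Nx d7 than in UIRI d7 of the first cohort (-0.83 ± 0.25, adjusted p = 0.0456).

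The Ly6c2 transcript, a marker of inflammatory monocytes, averaged 0.359 ± 0.25 CPM in UIRI+Nx d7 and 2.90 ± 1.1 CPM in UIRI d7 (SD, n = 6 each), a log2 fold change of -2.99 ± 0.45 (adjusted p = 0.000133). Second-cohort values were 1.14 ± 0.61 CPM in 4 UIRI+Nx d7 kidneys and 2.83 ± 0.83 CPM in 6 UIRI d7 kidneys (-1.26 ± 0.37, adjusted p = 0.0525). Ly6c2 was singled out after its values were seen.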
